A study of Coturnix japonica with 24 samples.

Results

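The genes described here are the cytochrome P450 genes and the genes of the conjugating enzymes in liver and abdominal white adipose tissue of Japanese quail (Coturnix japonica). They were chosen by symbol alone: every gene whose symbol is CYP followed by a digit, or starts with UGT1, UGT2, SULT, GSTA, GSTK, GSTM, GSTO, GSTT, GSTZ or MGST, together with HPGDS and PAPSS2. The bile acid and sterol P450 genes CYP7A1, CYP8B1, CYP27A1 and CYP51A1 were left out. The rule found 62 of the 17239 genes that carried counts in either tissue. Of these, 55 of 14983 genes were in the liver table and 53 of 15542 in the adipose table, and 46 were in both. The 62 were 37 P450 genes, 10 genes of cytosolic, mitochondrial and peroxisomal glutathione S-transferases (counting HPGDS), 3 microsomal glutathione S-transferase genes, 9 sulfotransferase genes, PAPSS2 and 2 UDP-glucuronosyltransferase genes.

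Cytochrome P450 enzymes are heme proteins, most of them in the endoplasmic reticulum, that insert an oxygen atom into lipophilic molecules with electrons passed on by P450 reductase or cytochrome b5. Conjugating enzymes then couple such molecules to a water-soluble group: glutathione S-transferases add glutathione, sulfotransferases add sulfate from the donor PAPS, and UDP-glucuronosyltransferases add glucuronic acid. Liver is the organ best known for this chemistry, which handles steroids, thyroid hormones, bilirubin, fatty acids and foreign compounds. In adipose tissue, members of these families are known for acting on steroids, prostaglandins and products of lipid oxidation.

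The series holds 24 libraries of polyadenylated RNA, read as PCR-amplified cDNA on a Nanopore instrument. All birds were male and were first housed on days of 16 hours of light, then kept on days of 8, 12 or 16 hours. The labels name these treatments a short photoperiod, 8L, and 2 long photoperiods, 12v and 16v, and do not explain the letter v. Each tissue had 4 libraries of each photoperiod, so the groups were liver at 8L, 12v and 16v, and adipose at 8L, 12v and 16v. The labels give each of the 12 samples of a tissue a number of its own, and 11 of these numbers stand in both tissues. They do not say that a number marks a bird, so the p-values measure the spread between these samples, and fits with the number as a block are given where they end a call. The comparisons ask how the enzymes differ between liver and fat, and between the long photoperiods and the short one within each tissue.

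Levels are counts per 1000000 counts of the library (CPM), with all transcripts of a gene summed, and they are not divided by transcript length, so they are compared between samples of 1 gene and not between genes. Fold changes are on the log2 scale from edgeR's quasi-likelihood test over all genes with enough counts, with their standard error (SE), and a gene passed where the p-value, adjusted by Benjamini-Hochberg over all those genes, was under 0.05. Libraries held 72125 to 867217 counts in liver and 72716 to 1389063 in adipose. The lowest were those of liver 12v replicate 3 and adipose 16v replicate 2, where a low CPM rests on very few counts. The 62 genes took 1.19% to 2.47% of the counts of a liver library and 0.151% to 0.373% of those of an adipose library. In a tissue sample, fewer cells of a type and less RNA per cell cannot be told apart.

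Of 9 tested hepatocyte markers, 8 were called higher in liver than in adipose, and all 7 tested adipocyte markers were called lower. ALB, the serum albumin gene of hepatocytes, had a median of 108972 CPM in liver, against 5.58 CPM in adipose, where it reached 419 CPM. APOA1 and TF, listed with it, were high in both tissues, and their adipose means were 53.6% and 41.4% of their liver means. The adipocyte genes FABP4, ADIPOQ and LIPE had a median of 0 in liver, and CIDEC, PPARG, PNPLA2 and LPL had liver medians of 22.1, 18.1, 11.03 and 6.94 CPM. Within liver, the summed CPM of 10 hepatocyte markers was 124523 to 163998 at 8L, 88585 to 145731 at 12v and 83656 to 120414 at 16v, and that of 7 adipocyte markers was 122 to 219 at 8L, 0 to 78.7 at 12v and 26.4 to 40.4 at 16v. On a scale set over both tissues, CIDEC reached 224 CPM in liver, and each of the other adipocyte markers at most 34.7 CPM. At 16v against 8L in liver, 2 of these 7 were tested. Of the 2, 1 was called lower, against 0.419% of all genes, and 1 had a fold change above 0. Of 10 tested hepatocyte markers in that comparison, 1 was also called lower, and the fold change was above 0 in 5 and below 0 in 5. At an unadjusted p under 0.05, 3 of the 10 were lower and 1 was higher, against 11% and 10.3% of all genes. The summed endothelial markers were 46.0 to 104 CPM at 8L, 101 to 246 at 12v and 120 to 175 at 16v. The part of cell makeup in the photoperiod values below was not tested.

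Of the 62 genes, 37 had enough counts for the test between tissues, and 30 of them (81.1%) passed, with 23 higher and 7 lower in liver than in adipose. Over all 7107 genes tested the share was 54.9%, with 23.9% higher and 31% lower. The median log2 fold change of the 37 genes was 2.03, against -0.29 for all genes. CPM values in this comparison are on 1 scale set over both tissues, and those within a tissue, further on, on the scale of that tissue. The all-gene median was -0.59 with the relative log expression scaling and -0.91 with library size alone, and under these scalings the numbers higher and lower were 23 and 8, and 22 and 9. The shares of all genes called under these 2 scalings are not given here, so these numbers are not read as particular to the listed genes. In 10 of the 37 genes every liver library lay above every adipose library, as in 5.45% of all genes tested, and in 1 gene, SULT1E1, every liver library lay below, as in 5.01% of all genes.

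**Figure D1:**
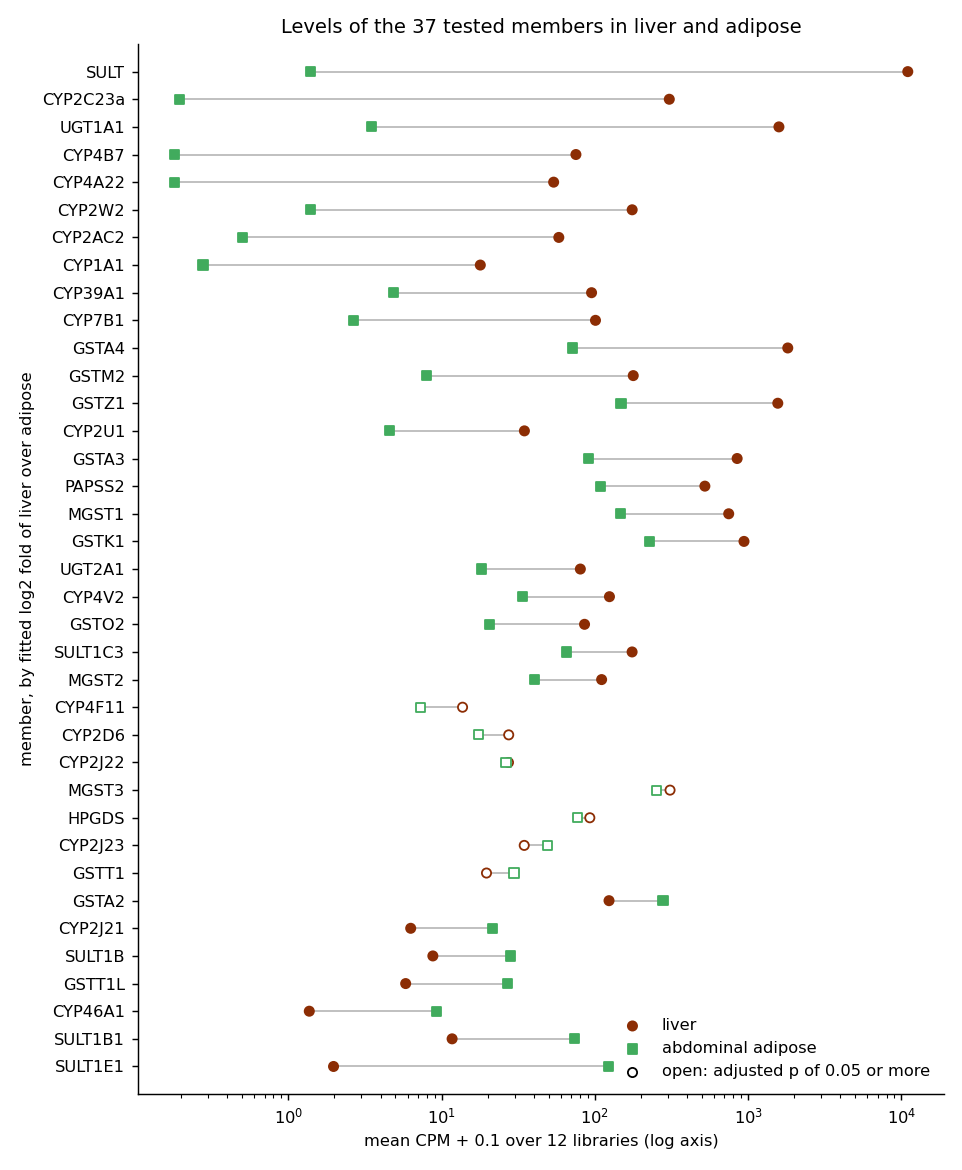
Mean CPM of the 37 tested P450 and conjugation enzyme genes in liver (circles) and adipose (squares), over 12 libraries each, on a log axis after a small constant was added so that a mean of 0 can be drawn. Open symbols are genes whose difference had an edgeR adjusted p of 0.05 or more; SULT, UGT1A1 and several P450 genes sit far to the right in liver, and SULT1E1 and SULT1B1 sit to the right in adipose.

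The liver P450 genes that passed included enzymes of sterols and of fatty acids. CYP7B1, an oxysterol hydroxylase, had 32.7 to 165 CPM in liver (median 114), against 0 to 7.18 CPM in adipose (median 2.24), a log2 fold change of 4.97 ± 0.38 (edgeR adjusted p = 1.81e-10). CYP39A1, another oxysterol hydroxylase, had 20.5 to 262 CPM in liver (median 68.2), against 0 to 24.5 CPM in adipose (median 0), a log2 fold change of 5.34 ± 0.77 (edgeR adjusted p = 6.81e-06), and of 4.78 to 6.34 over the alternatives, the highest without adipose 8L replicate 2. Some P450 genes were almost unread in fat, so that their ratio is given from summed counts with a 95% interval for counting error only. CYP2C23a, of the subfamily known for making epoxides of fatty acids, had 1535 counts in liver and 1 in adipose, a ratio of 3043 (545 to 120279). CYP4B7 and CYP4A22, of the family that hydroxylates the ends of fatty acids, had ratios of 809 (144 to 32027, from 408 liver counts and 1 adipose count) and 545 (97.0 to 21612, from 275 liver counts and 1 adipose count). For CYP1A1, an enzyme induced through the aryl hydrocarbon receptor, 103 counts in liver and 2 in adipose gave a ratio of 102 (27.6 to 854).

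Of the other P450 genes with a call, CYP2W2 had 28.0 to 355 CPM in liver (median 137), against 0 to 4.08 CPM in adipose (median 1.09), a log2 fold change of 6.77 ± 0.49 (edgeR adjusted p = 9.16e-11), which was 5.14 with 1 transcript per gene. CYP2AC2 had a log2 fold change of 6.57 ± 0.66 (edgeR adjusted p = 6.39e-08). CYP2U1, a fatty acid hydroxylase, and CYP4V2, of the fatty acid hydroxylase family, had log2 fold changes of 3.08 ± 0.32 and 1.84 ± 0.36. The P450 genes that were lower in liver were CYP46A1, known as the cholesterol hydroxylase of brain, at -3.27 ± 0.98 (edgeR adjusted p = 0.00828), and CYP2J21 at -1.80 ± 0.69 (edgeR adjusted p = 0.0306). CYP46A1 averaged 1.27 ± 2.26 CPM in liver and 9.14 ± 10.9 CPM in adipose (SD, n = 12 each), and CYP2J21 6.19 ± 9.83 CPM in liver and 21.3 ± 12.2 CPM in adipose. Neither call held under every alternative: with the labels' sample number as a block the edgeR adjusted p of CYP46A1 was 0.0550, and the highest adjusted p was 0.218 for CYP46A1 and 0.343 for CYP2J21, whose call ended without liver 16v replicate 2 or without adipose 8L replicate 4, with an adjusted p of up to 0.0525. Their log2 fold changes over the alternatives were -4.17 to -2.17 for CYP46A1 and -3.52 to -0.91 for CYP2J21, whose value was -3.52 without liver 12v replicate 4. The P450 genes CYP2D6, CYP2J22, CYP2J23 and CYP4F11 did not pass. In all, 10 of the 16 tested P450 genes were higher and 2 lower in liver.

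For glucuronidation, UGT1A1, the bilirubin-conjugating enzyme in mammals, averaged 1587 ± 719.6 CPM in liver and 3.37 ± 5.06 CPM in adipose (SD, n = 12 each). The lowest liver library had 607 CPM and the highest adipose library 17.1 CPM, so the tissues did not overlap. The log2 fold change was 9.77 ± 0.52 (edgeR adjusted p = 6.11e-12). Its counts were spread over 12 transcripts and summed to 11.2 times those of the largest, so a read may stand in the sum more than once. With 1 transcript per gene the log2 fold change was 7.02, the lowest of a range to 10.23 over 35 alternatives. UGT2A1 had 13.7 to 132 CPM in liver (median 74.4), against 9.74 to 32.9 CPM in adipose (median 17.3), a log2 fold change of 2.03 ± 0.28 (edgeR adjusted p = 1.63e-06).

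Sulfotransferases went in both directions. A gene that carries the bare symbol SULT, which names no subfamily, had 3091 to 23707 CPM in liver (median 7777), against 0 to 15.5 CPM in adipose (median 0), and its edgeR adjusted p was 2.35e-10. All of its adipose signal was 6 counts in 1 library, 1 on each of 6 transcripts, so no fold is given. Its liver counts were spread over 8 transcripts and summed to 6.48 times the largest, which raises its CPM where reads were assigned more than once. SULT1E1, known as the estrogen sulfotransferase, had 0 to 15.3 CPM in liver (median 0), against 45.5 to 262 CPM in adipose (median 107). It was the 1 gene whose adipose libraries all lay above its liver libraries, with a log2 fold change of -7.58 ± 0.61 (edgeR adjusted p = 1.40e-08) from 9 liver counts in 3 libraries.

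SULT1B1, which sulfates phenols and thyroid hormones in mammals, had 0 to 47.2 CPM in liver (median 4.36), against 36.2 to 142 CPM in adipose (median 66.5). In liver 8L replicate 1 alone exceeded the lowest adipose library, with a log2 fold change of -3.67 ± 0.39 (edgeR adjusted p = 4.20e-08). SULT1B was also lower in liver, at -1.84 ± 0.52 (edgeR adjusted p = 0.00501) and at -2.69 with the sample number as a block, and SULT1C3 was higher, at 1.52 ± 0.39 (edgeR adjusted p = 0.00225). PAPSS2, which makes the sulfate donor PAPS, had 196 to 796 CPM in liver (median 644), against 0 to 396 CPM in adipose (median 69.1), and its log2 fold change was 2.503 ± 0.41 (edgeR adjusted p = 2.27e-05).

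Among the glutathione S-transferases, 6 of 10 were higher and 2 lower in liver. GSTA4, which couples glutathione to aldehydes from lipid peroxidation, had 523 to 3170.0 CPM in liver (median 1872), against 9.74 to 182 CPM in adipose (median 50.5). Its libraries were apart by tissue, with a log2 fold change of 4.87 ± 0.35 (edgeR adjusted p = 9.01e-11). GSTZ1, an enzyme of tyrosine breakdown, had 1019 to 2615 CPM in liver (median 1359.5), against 0 to 389.8 CPM in adipose (median 139.7), a log2 fold change of 3.48 ± 0.40 (edgeR adjusted p = 1.39e-07). GSTM2, of the mu class, and GSTA3, of the alpha class, had log2 fold changes of 4.03 ± 0.62 and 3.07 ± 0.47. GSTK1, a mitochondrial and peroxisomal enzyme, averaged 939 ± 513 CPM in liver and 226 ± 100.1 CPM in adipose and had a log2 fold change of 2.11 ± 0.35 (edgeR adjusted p = 2.10e-05), and GSTO2, an omega class enzyme that reduces dehydroascorbate, 1.78 ± 0.39 (edgeR adjusted p = 0.000482).

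GSTT1L, listed under a theta class name, was lower in liver at -2.26 ± 0.50 (edgeR adjusted p = 0.000555), and GSTA2 at -1.24 ± 0.40 (edgeR adjusted p = 0.0115). The calls on GSTA2 and SULT1B ended once the percent of counts held by the 17 loci described below entered as a covariate, and that on GSTA2 also without liver 12v replicates 1 and 3 and 16v replicate 1. With the sample number as a block GSTA2 had an edgeR adjusted p of 0.0641. HPGDS, a sigma class enzyme that makes prostaglandin D, had 23.1 to 216 CPM in liver (median 67.3), against 0 to 209.8 CPM in adipose (median 71.1) and did not pass, at -0.04 ± 0.33 (edgeR adjusted p = 0.931); its liver mean was the higher one although the fitted value was below 0. The microsomal enzymes MGST1 and MGST2 were higher in liver, at 2.36 ± 0.20 (edgeR adjusted p = 1.30e-09) and 1.33 ± 0.30 (edgeR adjusted p = 0.000771), and MGST3 did not pass at 0.03 ± 0.34 (edgeR adjusted p = 0.959). The call on MGST2 ended with library size alone.

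Some of the 62 genes were listed for 1 tissue only, and such a gene has no value in the other tissue. Listed for liver alone were CYP1A2, CYP2AC1, CYP2C18, CYP2C23b, CYP3A5, CYP2W1, CYP26A1, SULT6B1L and SULT2B1. Of these, CYP2W1, SULT2B1 and CYP26A1 had only 25, 15 and 4 counts over the 12 libraries. Listed for adipose alone were CYP17A1 (3 counts over the 12 libraries), CYP21A1 (2), CYP24A1 (1), CYP26C1 (2), CYP27C1 (2), CYP2AB2 (1) and CYP2J19 (5). Counts this low do not set the tissues apart. CYP17A1 and CYP21A1 are steroid-making enzymes, CYP24A1 breaks down vitamin D and CYP26C1 retinoic acid. No adipose-only gene had enough counts for the photoperiod test.

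Within liver, 36 of the 55 listed genes had enough counts for the photoperiod tests. The other 19 had 1 to 103 counts over the 12 libraries. They were 13 P450 genes, among them CYP1A1, CYP2R1, CYP3A4 and CYP4F11, together with GSTT1L and the sulfotransferase genes SULT1B, SULT1E1, SULT2B1, SULT4A1 and SULT6B1.

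At 16v against 8L, 1 of the 36 genes passed: HPGDS fell. The share over all 4532 genes tested was 0.794%, and 0.419% fell. The fold change was below 0 in 25 of the 36 genes and above 0 in 11, with a median of -0.63, against 0.07 for all genes. At 12v against 8L, edgeR called 0 of the 36, against 0.331% of all genes, and the fold change was below 0 in 24 genes and above 0 in 12, with a median of -0.38, against -0.08 for all genes. At an unadjusted p under 0.05 there were 6 genes higher and 7 lower at 12v, against 9.97% and 8.36% of all genes (18.3% in all). At 16v there were 4 higher and 11 lower, against 10.3% and 11% of all genes (21.3% in all). DESeq2 called 8 of the 36 at 12v and 12 at 16v, against 8.05% and 12% of all genes.

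Neither count of directions held under every alternative. With library size alone the genes below 0 numbered 19 at 12v and 22 at 16v, and with a score of ribosomal protein genes as a covariate 14 and 15. With the percent of counts at 17 loci, described below, they numbered 23 and 18. With library size alone the median of all genes moved to 0.15 at 12v and 0.33 at 16v. The ribosomal protein score, where a higher value stands for fewer ribosomal protein counts, lay between -6.08 and -2.78 in the 8L livers. In every 12v and 16v liver it was higher, at -2.50 or above, so this covariate cannot be told fully apart from photoperiod in liver. The 12v replicates 1 and 3 and 16v replicate 1 stood apart from the other liver libraries at 6.23, 7.97 and 9.27.

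**Figure D2:**
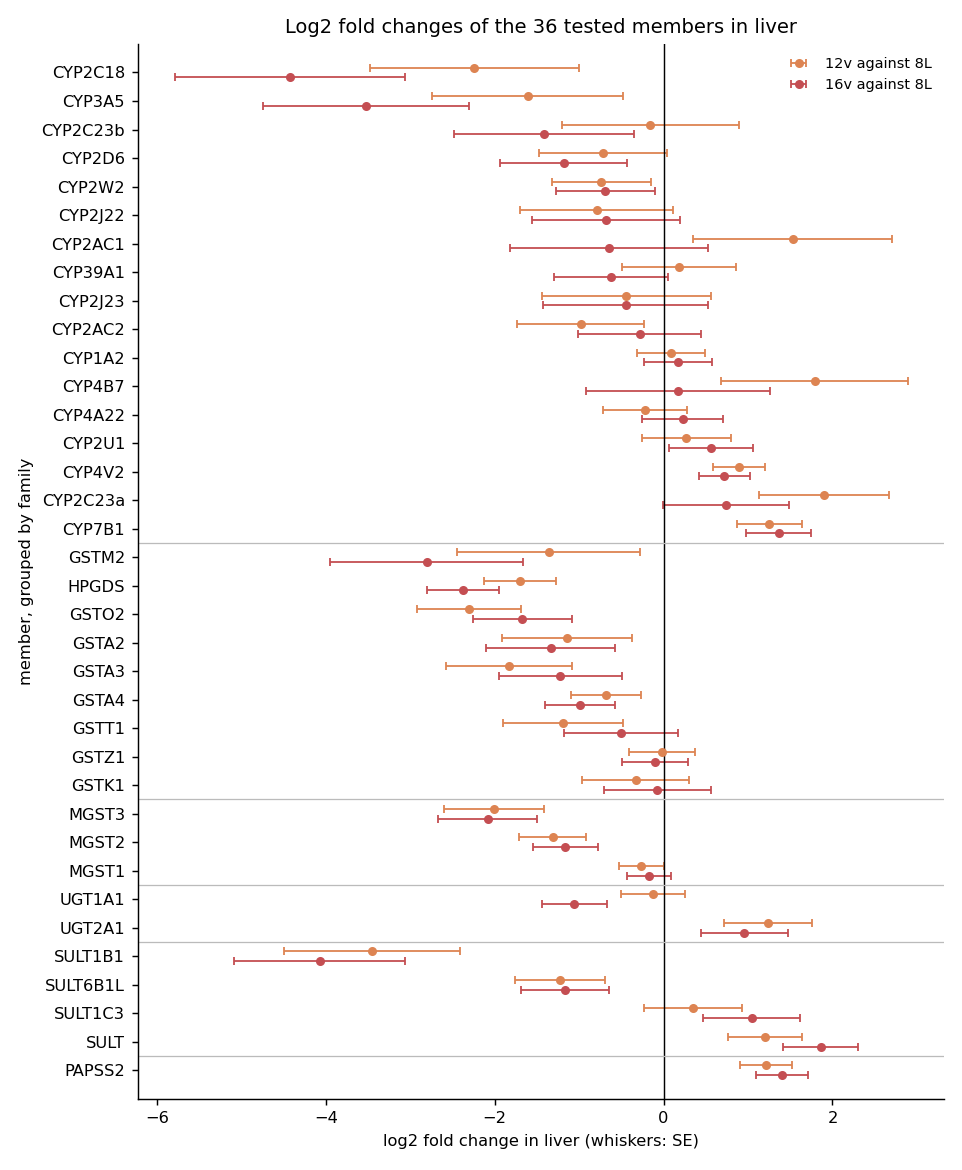
Log2 fold changes in liver of the 36 tested genes, grouped by family, at 12v and at 16v against 8L, with bars of 1 standard error. The glutathione S-transferases and microsomal enzymes lie at or left of 0 at both photoperiods, and PAPSS2, SULT, CYP7B1 and CYP4V2 lie right of 0; HPGDS at 16v is the 1 gene past the adjusted threshold.

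All 9 tested glutathione S-transferase genes had a fold change below 0 at both long photoperiods, with medians of -1.19 at 12v and -1.22 at 16v. With library size alone 8 and 7 of the 9 stayed below 0, with the ribosomal score as covariate 5 and 5, and with the loci share as covariate 9 and 7. The summed CPM of all 10 listed genes of this family, with the untested GSTT1L, was 4715, 7276, 5376 and 7073 in the 8L livers. It was 3858, 4623, 2166 and 4442 in the 12v livers, and 2757, 3545, 4188 and 4343 in the 16v livers. Every 12v and 16v library lay below the lowest 8L library in this sum, by the narrowest margin for 12v replicate 2. The sum was taken on the main scaling alone and has no share of all genes beside it. The summed hepatocyte markers, given above, were also lower in every 16v liver than in any 8L liver. The gap is therefore not read as particular to this family.

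HPGDS had 170.3, 164, 94.7 and 185 CPM at 8L, 32.3, 55.6, 44.7 and 54.2 CPM at 12v, and 18.1, 20.5, 48.4 and 30.0 CPM at 16v. Every long-photoperiod library lay below the lowest 8L library. Its log2 fold change was -2.38 ± 0.42 (edgeR adjusted p = 0.0241) at 16v and -1.70 ± 0.42 (edgeR adjusted p = 0.0800) at 12v. Under 21 alternatives the fold change at 16v stayed between -2.72 and -2.01, with adjusted p from 4.39e-07 to 0.192 and 9 alternatives past the threshold. Leaving out 1 liver library at a time gave fold changes of -2.72 to -2.19 and adjusted p of 0.0147 to 0.120, and the call ended without any one of the 8L or 16v libraries and without 12v replicate 2. By the correlation of log2 CPM over the 12 liver libraries, the genes most like HPGDS among 4532 were MYL12A, a myosin light chain, at r = 0.96, RPL21, a ribosomal protein, at 0.91 and MRPL48, a mitochondrial ribosomal protein, at 0.91. These correlations are over libraries that share photoperiod and depth and carry no test.

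**Figure D3:**
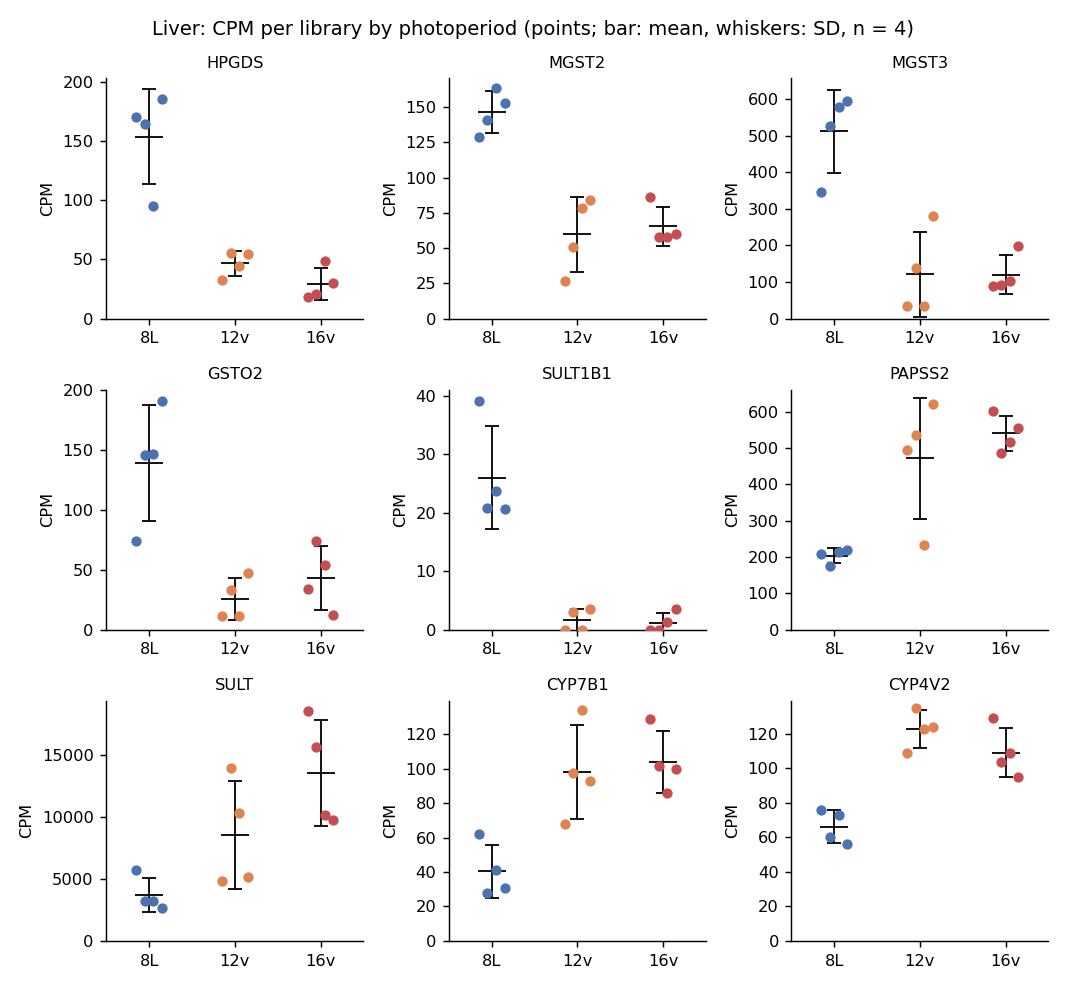
CPM of 9 genes in each liver library by photoperiod, with the bar at the mean and whiskers of 1 SD (n = 4). HPGDS, MGST2, MGST3, GSTO2 and SULT1B1 have all 8L points above those of 12v (and, except for GSTO2, above those of 16v); PAPSS2, CYP7B1 and CYP4V2 have all 8L points below both long photoperiods, and SULT below those of 16v.

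The omega class gene GSTO2 had 73.6, 145, 146 and 191 CPM at 8L, 11.8, 33.0, 11.2 and 47.2 CPM at 12v, and 33.9, 74.1, 53.8 and 12.0 CPM at 16v. All 12v libraries lay below all 8L libraries, and 16v replicate 2 reached just above the lowest 8L value. The log2 fold change was -2.31 ± 0.62 (edgeR adjusted p = 0.108) at 12v and -1.67 ± 0.59 (edgeR adjusted p = 0.133) at 16v, where it was -0.94 with the ribosomal score as covariate. GSTA3, an alpha class enzyme known in mammals for steroid isomerization, had 868, 1440.0, 856 and 1579.5 CPM at 8L, 138, 688, 22.3 and 453 CPM at 12v, and 127, 519.7, 597 and 787 CPM at 16v. The long-photoperiod values all lay below the lowest 8L value and spanned a wide range, with log2 fold changes of -1.83 ± 0.74 (edgeR adjusted p = 0.234) and -1.22 ± 0.73 (edgeR adjusted p = 0.358). Over the alternatives the value of GSTA3 at 12v was -2.48 to -0.58, nearest to 0 with the ribosomal score.

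GSTA4 had 1326, 2686, 2023 and 2141 CPM at 8L, 1082, 1760.1, 625 and 1609 CPM at 12v, and 479.5, 1244, 1012 and 1378 CPM at 16v. The groups overlapped, with log2 fold changes of -0.68 ± 0.41 (edgeR adjusted p = 0.395) at 12v and -0.99 ± 0.41 (edgeR adjusted p = 0.187) at 16v, which became -0.19 with the ribosomal score. GSTZ1 had 1132, 1158, 1141 and 1779.5 CPM at 8L, 2182, 940.1, 1217 and 805 CPM at 12v, and 1966, 879, 834 and 1179.7 CPM at 16v. Here 8L replicate 4 and the first replicates of 12v and 16v were high and the fold changes were near 0, at -0.02 ± 0.39 and -0.10 ± 0.39. GSTK1 had 739, 914, 702 and 860.4 CPM at 8L, 373, 1002, 246 and 915 CPM at 12v, and 92.7, 685, 1472 and 804 CPM at 16v, and 16v held both the lowest and the highest value. GSTA2 and GSTT1, the theta class gene, had log2 fold changes of -1.34 ± 0.77 and -0.50 ± 0.67 at 16v and did not pass.

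The 3 microsomal glutathione S-transferase genes also had fold changes below 0 at both long photoperiods, with medians of -1.31 at 12v and -1.16 at 16v, in 2 of 3 genes with library size alone and, with the ribosomal score, in 3 at 12v and 2 at 16v. MGST3, which has peroxidase activity and can make a leukotriene in mammals, had 347, 526, 579 and 596 CPM at 8L, 35.3, 138, 33.5 and 279.8 CPM at 12v, and 88.2, 92.3, 102 and 199 CPM at 16v. All long-photoperiod libraries lay below all 8L libraries, with log2 fold changes of -2.01 ± 0.59 (edgeR adjusted p = 0.133) at 12v and -2.08 ± 0.59 (edgeR adjusted p = 0.0922) at 16v. At 16v the fold change was -2.44 to -0.94 over the alternatives, nearest to 0 with the ribosomal score, and the adjusted p was 0.00429 to 0.547.

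MGST2, a related leukotriene-forming enzyme, had 129, 141, 164 and 153 CPM at 8L, 26.5, 51.1, 78.1 and 84.0 CPM at 12v, and 86.0, 58.1, 57.9 and 60.0 CPM at 16v. Again the groups did not overlap, with log2 fold changes of -1.31 ± 0.40 (edgeR adjusted p = 0.141) and -1.16 ± 0.39 (edgeR adjusted p = 0.126). MGST1, the broad detoxifying member, had 502, 690.0, 770.4 and 668 CPM at 8L, 571, 692, 447 and 474 CPM at 12v, and 486, 568, 627 and 649 CPM at 16v. Its groups overlapped, with log2 fold changes of -0.26 ± 0.27 and -0.17 ± 0.26.

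On the sulfation side, the donor enzyme and the sulfotransferase genes were not all on one side of 0. PAPSS2 had 209, 175, 213 and 219 CPM at 8L, 494, 536, 234 and 621 CPM at 12v, and 602, 487, 518 and 554 CPM at 16v. Every long-photoperiod library lay above every 8L library, and the 8L libraries were within a narrow range. Closest to them was 12v replicate 3, the liver library of lowest depth. The log2 fold change was 1.40 ± 0.31 (edgeR adjusted p = 0.0588) at 16v and 1.22 ± 0.31 (edgeR adjusted p = 0.0834) at 12v, neither past the threshold. Over the alternatives at 16v the fold change was 1.30 to 1.65 and the adjusted p 2.25e-05 to 0.211, with 7 of 21 past the threshold. PAPSS2 counts summed to 6.95 times those of its largest of 7 transcripts.

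SULT had 5744, 3247, 3219 and 2658 CPM at 8L, 4817, 13892, 10304 and 5170.0 CPM at 12v, and 18541, 15592, 10167 and 9723 CPM at 16v. The 16v libraries all lay above the 8L libraries, and the 12v libraries overlapped them. The log2 fold change was 1.86 ± 0.44 (edgeR adjusted p = 0.0613) at 16v and 1.20 ± 0.44 (edgeR adjusted p = 0.196) at 12v, and the adjusted p at 16v was 0.00136 to 0.434 over the alternatives. The summed CPM of all the listed genes but SULT was 10211 to 14098 at 8L, 5571 to 12743 at 12v and 5967 to 8798 at 16v, with every 16v library below every 8L library. With SULT included, the listed genes took 1.19% to 1.43% of a library's counts at 8L. They took 1.38% to 2.27% at 12v and 1.77% to 2.47% at 16v, where every library lay above every 8L library. Neither sum has a share of all genes beside it, so these gaps are not read as particular to the listed genes.

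SULT1B1 had 39.1, 20.8, 23.7 and 20.6 CPM at 8L, 0, 3.00, 0 and 3.50 CPM at 12v, and 0, 0, 1.35 and 3.60 CPM at 16v. All 8L libraries had counts, and 2 of 4 libraries at 12v and 2 of 4 at 16v had none, so its fitted fold change depends on the prior count. That value was -4.07 ± 1.01 (edgeR adjusted p = 0.0639) at 16v and -3.45 ± 1.05 (edgeR adjusted p = 0.141) at 12v, and -2.93 and -2.61 with the ribosomal score as covariate. SULT1C3 had 46.0, 132, 136 and 60.3 CPM at 8L, 112, 164, 22.3 and 159 CPM at 12v, and 65.6, 253, 202 and 246 CPM at 16v with overlapping groups, a log2 fold change of 1.04 ± 0.58 (edgeR adjusted p = 0.326) at 16v. SULT6B1L had log2 fold changes of -1.23 ± 0.53 and -1.16 ± 0.52, neither past the threshold, and -0.53 and -0.47 with the ribosomal score.

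Of the 17 tested P450 genes, the fold change was above 0 in 8 at 12v and 7 at 16v, with medians of -0.16 and -0.45, and none passed edgeR's test at either photoperiod. CYP7B1 had 62.1, 27.7, 40.9 and 30.9 CPM at 8L, 67.6, 97.6, 134 and 92.7 CPM at 12v, and 129, 101, 86.1 and 99.6 CPM at 16v. CYP4V2, a fatty acid hydroxylase, had 75.9, 60.0, 73.2 and 55.9 CPM at 8L, 109, 135, 123 and 124 CPM at 12v, and 129, 104, 109 and 94.8 CPM at 16v. In both genes every long-photoperiod library lay above every 8L library. The log2 fold changes of CYP7B1 were 1.25 ± 0.39 (edgeR adjusted p = 0.143) at 12v and 1.36 ± 0.38 (edgeR adjusted p = 0.0890) at 16v, and those of CYP4V2 were 0.89 ± 0.31 (edgeR adjusted p = 0.179) and 0.72 ± 0.30 (edgeR adjusted p = 0.191). The levels of these 2 genes correlated over the 12 liver libraries (r = 0.92). This pair is among the highest correlations of the tested genes in these libraries. The value pools the photoperiods and carries no test.

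CYP2C23a had 166, 171, 121 and 8.82 CPM at 8L, 447, 386, 413 and 483 CPM at 12v, and 29.4, 125, 371 and 247 CPM at 16v. The 12v libraries lay above all 8L libraries, while 8L replicate 4 and 16v replicate 1 were low, and the log2 fold change at 12v was 1.90 ± 0.77 (edgeR adjusted p = 0.234), which became 3.42 with the loci share as covariate. CYP1A2, an aryl hydrocarbon receptor target in mammals, had 409.6, 840.0, 682 and 246 CPM at 8L, 523, 790.0, 424 and 570.2 CPM at 12v, and 593, 825, 352 and 679 CPM at 16v. Its groups overlapped throughout, with log2 fold changes of 0.09 ± 0.40 and 0.17 ± 0.40. CYP39A1, CYP2U1, CYP4A22, CYP2W2, CYP2AC2, CYP2J22, CYP2J23, CYP4B7 and CYP2C23b had log2 fold changes from -1.41 to 0.56 at 16v, none past the threshold.

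The P450 genes CYP2C18 and CYP3A5, the second of the subfamily that oxidizes steroids and many drugs, and the glutathione S-transferase gene GSTM2 varied together over the liver libraries. CYP2C18 had 608, 967, 801 and 222 CPM at 8L, 2.94, 10.5, 11.2 and 498 CPM at 12v, and 9.05, 6.84, 84.8 and 18.0 CPM at 16v. CYP3A5 had 80.5, 233, 127 and 25.0 CPM at 8L, 0, 21.0, 0 and 115 CPM at 12v, and 0, 5.70, 24.2 and 8.40 CPM at 16v. GSTM2 had 308, 462, 249.6 and 131 CPM at 8L, 2.94, 28.5, 0 and 392 CPM at 12v, and 11.3, 25.1, 72.7 and 52.8 CPM at 16v. In all 3 genes the highest long-photoperiod library was 12v replicate 4, which lay inside the 8L range, whereas 16v libraries all lay below the 8L range.

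The log2 fold changes at 16v were -4.43 ± 1.36 (edgeR adjusted p = 0.112) for CYP2C18, -3.52 ± 1.22 (edgeR adjusted p = 0.132) for CYP3A5 and -2.81 ± 1.14 (edgeR adjusted p = 0.180) for GSTM2. Over the 12 liver libraries CYP3A5 and GSTM2 correlated at r = 0.95, CYP2C18 and CYP3A5 at 0.93 and CYP2C18 and GSTM2 at 0.92. These pairs are among the highest correlations of the tested genes in these same libraries. Other pairs were as high, such as GSTA2 with GSTA3 and CYP2J22 with CYP2J23, at 0.96 each. The correlations pool the photoperiods and carry no test. In 8L replicates 1 to 3 and 12v replicate 4, the 3 genes and the share of counts at 17 loci were higher than in the other liver libraries. These loci had near-identical counts: their summed differences over the libraries were under 10% of the counts of a locus that led the adipose table. In 8L replicate 4 the 3 genes were above their values in 16v replicate 3, while the share was lower. No correlation of the 3 genes with the share was computed. The 8L livers had shares of 18.8%, 10.1%, 13.04% and 2.19%, the 12v livers 1.74%, 2.11%, 1.25% and 14.1%, and the 16v livers 1.60%, 1.64%, 3.01% and 1.91%. With it as a covariate, chosen after the data had been seen, the log2 fold changes at 16v of CYP2C18, CYP3A5 and GSTM2 were -2.01, -1.14 and -0.68. With the ribosomal score as a covariate they were -2.20, -0.17 and -0.59. Without 12v replicate 4 the 12v comparison called 4 genes in place of 0, namely CYP2C18, GSTM2, GSTO2 and MGST3. The share of all genes called in that fit is not given here, so the 4 calls are not read as particular to these genes.

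**Figure D4:**
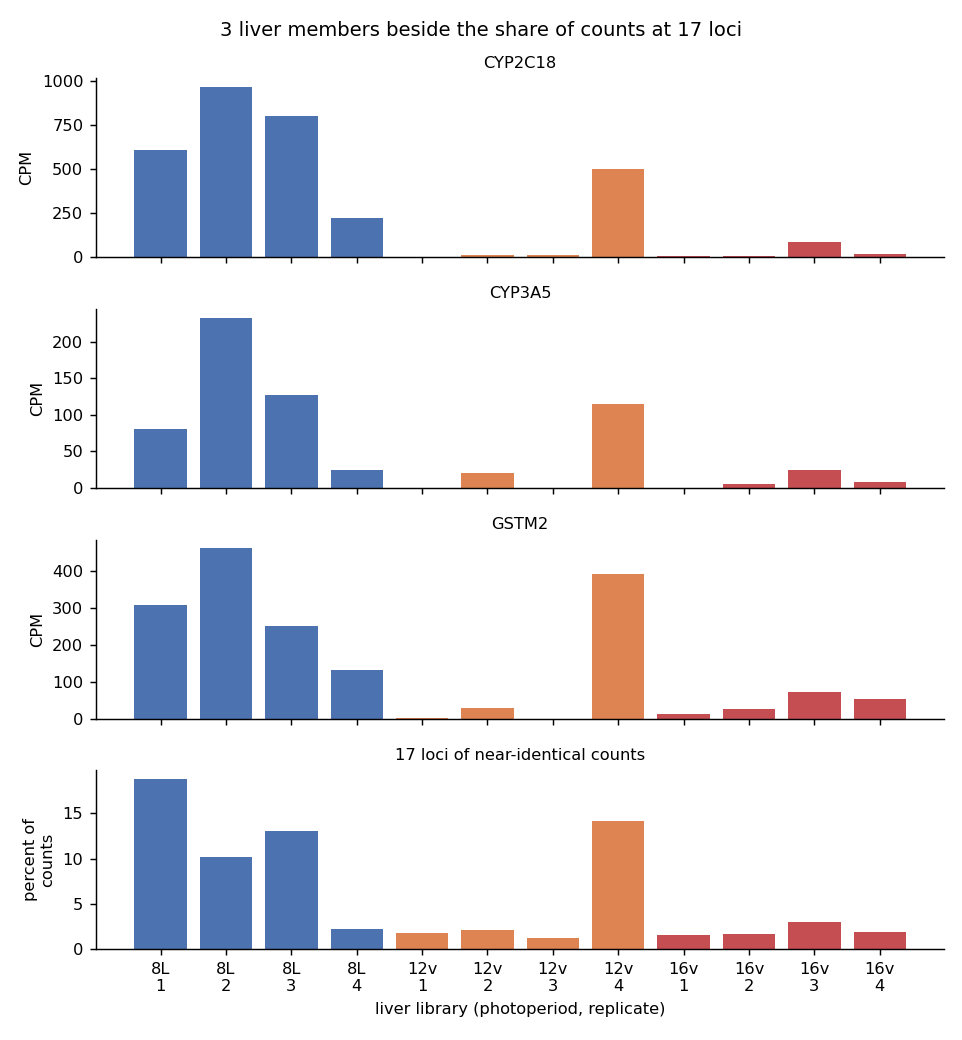
CYP2C18, CYP3A5 and GSTM2 in CPM, and the percent of counts at 17 near-identical loci, as bars for each of the 12 liver libraries. In all 4 panels 12v replicate 4 stands with the 8L libraries and away from the other long-photoperiod libraries, and 8L replicate 4 is the lowest 8L library. In the panel of the 17 loci, 8L replicate 4 lies among those other long-photoperiod libraries.

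UGT1A1 had 1839, 1551, 1943 and 1113 CPM at 8L, 1273, 1139.9, 1027 and 2461 CPM at 12v, and 475, 647, 1205 and 764 CPM at 16v. The lowest values were at 16v, where replicate 3 reached into the 8L range. Its log2 fold change was -1.06 ± 0.39 (edgeR adjusted p = 0.141) at 16v and -0.12 ± 0.38 (edgeR adjusted p = 0.893) at 12v. The value at 16v was -1.35 to -0.33 over the alternatives, nearest to 0 with the loci share as covariate. UGT2A1 had 32.2, 50.8, 53.8 and 11.8 CPM at 8L, 58.8, 63.1, 156 and 84.0 CPM at 12v, and 86.0, 47.9, 98.2 and 55.2 CPM at 16v, with the 12v libraries above all 8L libraries and a log2 fold change of 1.24 ± 0.53 (edgeR adjusted p = 0.238) at 12v.

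Every 8L library lay apart from every 12v library in 11 of the 36 genes, with 12v above in CYP2C23a, CYP4V2, CYP7B1, PAPSS2 and UGT2A1 and below in GSTA3, GSTO2, HPGDS, MGST2, MGST3 and SULT1B1. Over all genes tested 12.4% were apart, 5.43% above and 7.02% below. Between 16v and 8L, 13 of 36 were apart, against 21.5% of all genes, 9.84% above and 11.7% below: CYP4V2, CYP7B1, PAPSS2 and SULT above, and CYP2C18, CYP2D6, CYP3A5, GSTA3, GSTM2, HPGDS, MGST2, MGST3 and SULT1B1 below. The 2 comparisons share the 8L libraries. The 12v group holds replicate 3, the liver library of lowest depth at 72125 counts, so its low values rest on few counts.

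At 16v against 12v in liver, edgeR called 0 of 36 genes, against 0.0221% of all genes, and 1 gene, UGT1A1, had an unadjusted p under 0.05, against 1.99% of all genes. DESeq2 called 0. In 1 of the 36 genes, CYP2C23a, every 16v library lay below every 12v library, and the groups were apart in either direction in 2.21% of all genes, 1.72% above and 0.485% below. UGT1A1 averaged 773 ± 312 CPM at 16v and 1475 ± 665 CPM at 12v (SD, n = 4 each), with a log2 fold change of -0.93 ± 0.38 (edgeR adjusted p = 0.999). CYP2AC1 averaged 52.9 ± 45.0 CPM at 16v and 236 ± 414 CPM at 12v, where replicate 4 alone had 855 CPM. Its log2 fold change was -2.17 ± 1.20 (edgeR adjusted p = 0.999), and that of CYP2C18 was -2.19 ± 1.26 (edgeR adjusted p = 0.999). Without 12v replicate 4 these became 0.89 and 1.94, with the sign turned, and over the alternatives the adjusted p was 0.857 to 1 for CYP2AC1 and 0.858 to 1 for CYP2C18.

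In adipose, 24 of the 53 listed genes had enough counts for the photoperiod tests. The other 29 had 1 to 93 counts over the 12 libraries and were 24 P450 genes, SULT, SULT4A1, SULT6B1, GSTM2 and UGT1A1. At 12v against 8L, edgeR called 0 of the 24, against 0.0154% of all 6494 genes tested. At an unadjusted p under 0.05 there were 4 genes, all lower at 12v, against 4.99% of all genes, 2.74% higher and 2.25% lower. DESeq2 called 1, GSTA4, and as its share of all genes is not given here, this call is not read as particular to these genes. At 16v against 8L, edgeR called 0 of the 24 and 0% of all genes, with 1 gene higher and 2 lower at an unadjusted p under 0.05, against 6.76% of all genes, 3.22% higher and 3.54% lower, and DESeq2 called 0. The median log2 fold change of the 24 genes was -0.13 at 12v, against -0.03 for all genes, and -0.02 at 16v, against -0.06. The summed CPM of 6 fibroblast markers in these samples was 4487 to 10440 at 8L, 4158 to 5630 at 12v and 1776 to 5111 at 16v. That of 6 endothelial markers was 1275 to 3656 at 8L, 1000.1 to 2821 at 12v and 856 to 1892 at 16v, and that of 9 hepatocyte markers 2084 to 8441 at 8L, 4062 to 13346 at 12v and 5273 to 21779 at 16v. At 16v against 8L, edgeR called none of these markers. At an unadjusted p under 0.05, 3 of 6 tested fibroblast and 3 of 5 endothelial markers were lower and 2 of 3 hepatocyte markers were higher. APOA1, 1 of those 2, made up most of the hepatocyte sum. Of 8 tested adipocyte markers, edgeR called 0, and 2, ADIPOQ and PPARG, were lower at an unadjusted p under 0.05. The fold change of the 8 was above 0 in 5 and below 0 in 3. The part of cell makeup in the values below was not tested.

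GSTA4 in fat had 219.7, 198, 49.2 and 198 CPM at 8L, 61.0, 38.4, 35.0 and 19.9 CPM at 12v, and 80.1, 12.2, 61.0 and 70.4 CPM at 16v. Only 8L replicate 3 reached into the range of the long photoperiods. The log2 fold change was -2.14 ± 0.54 (edgeR adjusted p = 0.592) at 12v and -1.46 ± 0.52 (edgeR adjusted p = 0.569) at 16v, and the adjusted p at 12v was 0.0131 to 1 over the alternatives. PAPSS2 had 221, 483, 237 and 152 CPM at 8L, 35.6, 67.2, 0 and 58.0 CPM at 12v, and 58.4, 0, 177 and 96.3 CPM at 16v. All 12v libraries lay below all 8L libraries, and the 16v libraries overlapped them, with log2 fold changes of -2.71 ± 0.86 (edgeR adjusted p = 0.610) and -1.61 ± 0.82 (edgeR adjusted p = 0.777). It was the 1 gene of 24 whose 12v and 8L libraries were apart, against 5.05% of all genes, 2.69% with 12v below.

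SULT1C3 had 64.3, 114, 169 and 228 CPM at 8L, 71.2, 23.3, 11.7 and 66.3 CPM at 12v, and 25.0, 12.2, 61.0 and 96.3 CPM at 16v. Its log2 fold change was -1.71 ± 0.63 (edgeR adjusted p = 0.769) at 12v and -1.43 ± 0.63 (edgeR adjusted p = 0.713) at 16v, and the groups overlapped. SULT1E1 had 252, 319, 55.4 and 145 CPM at 8L, 104, 87.7, 55.4 and 87.0 CPM at 12v, and 210.3, 182, 174 and 113 CPM at 16v. The 12v libraries were low, and 8L replicate 3 was as low as the lowest of them, with a log2 fold change of -1.21 ± 0.45 (edgeR adjusted p = 0.769) at 12v. GSTK1 had 231, 156, 89.3 and 222 CPM at 8L, 399, 258, 277 and 202 CPM at 12v, and 250.4, 571, 361 and 281 CPM at 16v. Every 16v library lay above every 8L library, as in 1.56% of all genes (5.05% were apart in either direction), and the log2 fold change was 1.04 ± 0.38 (edgeR adjusted p = 0.584).

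**Figure D5:**
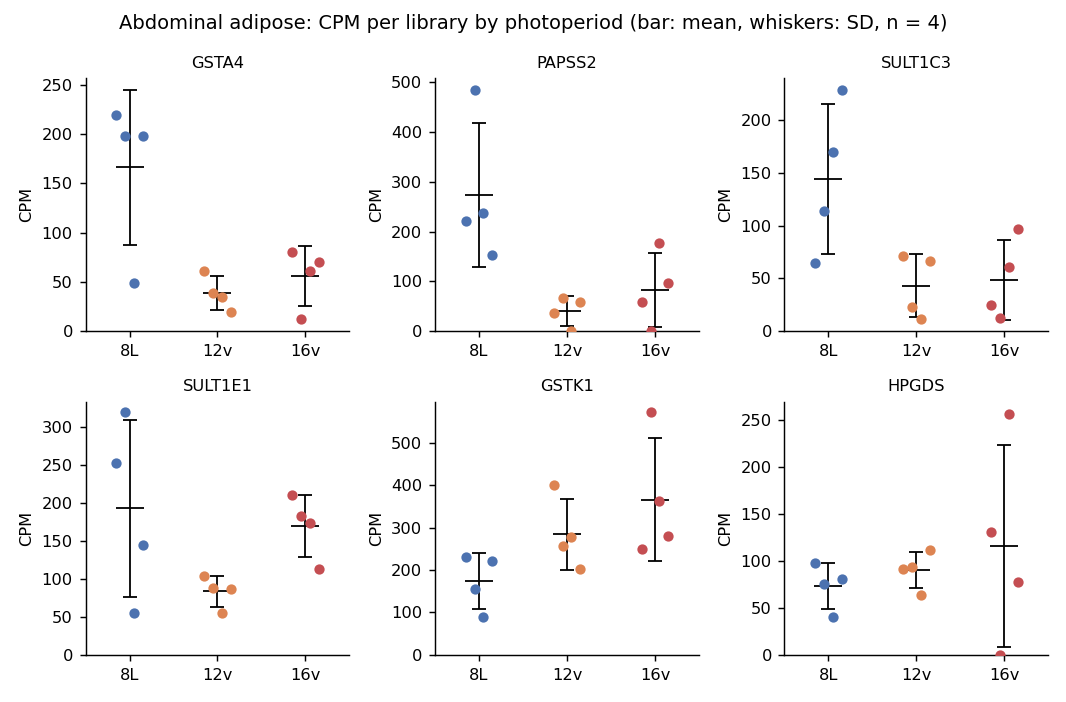
CPM of 6 genes in each adipose library by photoperiod, with the bar at the mean and whiskers of 1 SD (n = 4). GSTA4 and SULT1C3 are lower on average at both long photoperiods than at 8L, PAPSS2 has all 12v points below the 8L points, GSTK1 has all 16v points above the 8L points, and HPGDS overlaps throughout.

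Other conjugation genes of fat overlapped between photoperiods. HPGDS had 98.1, 75.6, 40.01 and 81.0 CPM at 8L, 91.5, 93.2, 64.1 and 111 CPM at 12v, and 130.2, 0, 256 and 77.7 CPM at 16v, and its log2 fold change at 16v was 0.73 ± 0.63 (edgeR adjusted p = 0.899). The value of 0 was from 16v replicate 2, the library of lowest depth, which also stood apart in its ribosomal protein score of 12.97. GSTA2 had 445, 347, 148 and 538 CPM at 8L, 425, 245, 347 and 262 CPM at 12v, and 461, 97.3, 254 and 467 CPM at 16v. GSTA3 had 141, 186, 27.7 and 103 CPM at 8L, 83.9, 48.0, 108 and 80.4 CPM at 12v, and 103, 36.5, 354 and 57.0 CPM at 16v. Both genes had 16v replicate 2 at or near the bottom of the range.

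GSTZ1 had 293, 201, 64.6 and 314 CPM at 8L, 76.3, 91.9, 55.4 and 149 CPM at 12v, and 472, 0, 247 and 185 CPM at 16v, with 16v holding both ends of the range. MGST1 had 204, 238, 151 and 213 CPM at 8L, 196, 115, 125 and 93.6 CPM at 12v, and 297, 158, 211 and 141 CPM at 16v. MGST3 had 259, 245, 166 and 329 CPM at 8L, 402, 219, 283 and 225 CPM at 12v, and 799.6, 109, 226 and 382 CPM at 16v, with the highest value at 16v replicate 1 and the lowest at 16v replicate 2. SULT1B1 had 68.9, 105, 43.1 and 97.9 CPM at 8L, 170.3, 64.4, 75.8 and 86.2 CPM at 12v, and 55.1, 72.9, 131 and 101 CPM at 16v, with log2 fold changes of 0.31 ± 0.42 at 12v and 0.20 ± 0.42 at 16v. None of these genes passed.

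At 16v against 12v in fat, edgeR called 0 of 24 genes and 0% of all genes, and DESeq2 called 0. At an unadjusted p under 0.05 there were 1 higher and 1 lower gene, against 4.68% of all genes, 2.25% higher and 2.43% lower. These were SULT1E1, at 1.01 ± 0.46 (edgeR adjusted p = 0.991), whose 16v libraries all lay above its 12v libraries, and GSTT1L, at -0.99 ± 0.45 (edgeR adjusted p = 0.991). MGST1 came next at 0.63 ± 0.33 (edgeR adjusted p = 0.991). Of all genes, 3.03% were apart, 1.2% with 16v above.

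The photoperiod differences were then compared between the tissues, as the fold change in liver minus that in adipose. For 16v against 8L, 2 of 37 genes passed, both lower, against 0.295% of all genes and 0.127% lower. SULT1B1 had a difference of -4.11 ± 0.90 (edgeR adjusted p = 0.0470): in liver it averaged 1.24 ± 1.70 CPM at 16v and 26.04 ± 8.84 CPM at 8L, and in adipose 90.1 ± 33.2 CPM at 16v and 78.7 ± 28.3 CPM at 8L (SD, n = 4 each). UGT1A1 had a difference of -6.10 ± 1.23 (edgeR adjusted p = 0.0373), which depends on the prior count because its adipose counts were 21 at 16v and 0 in every 8L library. Its liver fold change alone was -1.06 ± 0.39. The adipose 16v libraries had 3.34, 0, 20.8 and 5.18 CPM of UGT1A1, and the summed hepatocyte markers there were 7812, 11671, 21779 and 5273 CPM. Both were highest in replicate 3. UGT1A1 was 0 in replicate 2, at a sum of 11671 CPM, and 5.18 CPM in replicate 4, at the lowest sum. In adipose, ALB averaged 141 ± 255 CPM at 16v and 8.51 ± 10.8 CPM at 8L (SD, n = 4 each), a log2 fold change of 3.64 ± 1.54 (edgeR adjusted p = 0.688). The highest adipose value of ALB, 419 CPM on the scale of both tissues, was in 16v replicate 2. That library had the lowest depth in adipose, and UGT1A1 was 0 there. APOA1, which made up most of the summed markers and was high in both tissues, averaged 10789 ± 7100 CPM at 16v and 4470 ± 2624 CPM at 8L. Its log2 fold change was 1.27 ± 0.58 (edgeR adjusted p = 0.738). TF, the other tested hepatocyte marker, went the opposite way. It averaged 662 ± 408 CPM at 16v and 1134 ± 594 CPM at 8L, a log2 fold change of -0.76 ± 0.56 (edgeR adjusted p = 0.862). The part of hepatocyte RNA in the tissue difference of UGT1A1 was not tested.

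Over 35 alternatives the adjusted p was 0.000805 to 0.384 for SULT1B1, with 13 past the threshold, and 0.000364 to 0.384 for UGT1A1, with 17 past it. With the labels' sample number, which stands in both tissues for 11 numbers, as a block, both calls ended, and SULT1B1 had a difference of -5.49 and UGT1A1 one of -5.89 (edgeR adjusted p = 0.384 each). Leaving out 1 library at a time left 0 to 3 genes called, with adjusted p of up to 0.1004 for SULT1B1 and 0.0920 for UGT1A1. Both calls held without liver 8L replicate 4, without liver 12v replicate 1, 3 or 4, and without adipose 16v replicate 2, and at least 1 of them ended without any other single library.

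HPGDS and PAPSS2 did not pass in this comparison, at -2.88 ± 0.83 (edgeR adjusted p = 0.115) and 3.23 ± 0.98 (edgeR adjusted p = 0.144). For 12v against 8L, edgeR called 0 of 37 genes, against 0.478% of all genes. DESeq2 called 3, and as its share of all genes is not given here, these are not read as particular to these genes. At an unadjusted edgeR p under 0.05, 4 genes had a higher and 6 a lower difference, against 5.35% and 5.47% of all genes (10.8% in all). The smallest adjusted p-values there were those of PAPSS2 at 3.99 ± 1.00 (edgeR adjusted p = 0.0708) and SULT1B1 at -3.67 ± 0.92 (edgeR adjusted p = 0.0708). PAPSS2 was higher in every 12v liver library than in any 8L liver library, and lower in every 12v adipose library than in any 8L adipose library.

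The genes that serve these enzymes were described from lists of electron donors, transcriptional regulators, other oxidizing and reducing enzymes, cofactor supply, transporters and heme metabolism. In all liver and adipose photoperiod comparisons 1 gene of these lists passed edgeR's test: AKR1D1, the steroid reductase of bile acid and steroid metabolism, rose in liver at 16v. It had 221, 159, 286 and 115 CPM at 8L, 865, 643, 793 and 269 CPM at 12v, and 3506, 1069, 639 and 1216 CPM at 16v. Every 16v library lay above every 8L library, with a log2 fold change of 3.04 ± 0.57 (edgeR adjusted p = 0.0317) at 16v. Of all genes tested, 0.375% were called higher in that comparison. The highest value of AKR1D1 was in 16v replicate 1, a library that stood apart in its ribosomal protein score. Its values under the alternatives are not given here. POR, the reductase that feeds electrons to microsomal P450 enzymes, averaged 181 ± 37.1 CPM at 8L, 271 ± 146 CPM at 12v and 153 ± 75.1 CPM at 16v (SD, n = 4 each). CYB5A, cytochrome b5, averaged 772 ± 216 CPM at 8L, 536 ± 186 CPM at 12v and 507 ± 115 CPM at 16v (SD, n = 4 each). Of 10 listed electron donors, 6 were tested in liver and 0 passed.

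Of 26 listed regulators, 21 were read in liver and 7 were tested. RXRG, a retinoid X receptor, had a log2 fold change at 16v of -3.21 ± 1.10 (edgeR adjusted p = 0.129), and NR1H3, the liver X receptor alpha, one of 0.86 ± 0.37 (edgeR adjusted p = 0.203). In heme metabolism, HMOX1, the heme-degrading oxygenase, was at -2.92 ± 0.82 (edgeR adjusted p = 0.0922), and ALAS1, the first enzyme of heme synthesis, at 1.91 ± 0.84 (edgeR adjusted p = 0.208). UGP2, which makes the UDP-glucose used for glucuronic acid, was at -1.49 ± 0.40 (edgeR adjusted p = 0.0775). Between tissues, the numbers called higher and lower in liver were 4 and 1 of 7 electron donors, 3 and 3 of 7 regulators, 17 and 4 of 27 other oxidizing and reducing enzymes, 16 and 4 of 23 cofactor genes, 5 and 1 of 9 transporters and 4 and 2 of 9 heme genes, against 23.9% higher and 31% lower of all genes tested.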

How the data were processed

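The samples were 24 libraries of liver and abdominal white adipose tissue, made with the Oxford Nanopore PCR cDNA barcoding kit per the labels' protocols and grouped by the labels' tissue and photoperiod. The authors deposited 1 table of estimated counts per transcript for each tissue. The submitters' processing notes name minimap2 and Salmon, with no version or role, for the steps before these estimated counts were deposited. Neither build nor annotation is given in the sources used here. Of the deposited values, 99.49% in liver and 99.56% in adipose were whole within 1e-06, and each listed transcript had a count in at least 1 library. A read may have been counted at several transcripts of a gene, which was not tested. In liver the counts of GSTA4 summed to 4 times those of its largest of 4 transcripts. Those of GSTZ1, CYP39A1 and CYP46A1 summed to 4.32, 5.19 and 2.67 times the largest. The median over the listed genes was 1 in each tissue. Amplified reads carry no molecular identifiers, so intervals cover counting error only. No genome or sequence table was used, so sequences are not given. Of the gene symbols, 9 were in the quail RefSeq table, and 0 of 146 transcript accessions were.

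Counts were rounded per transcript and summed per gene. Each tissue was tested with edgeR 4.0.16 in R 4.3.3 (limma 3.58.1): filterByExpr with a minimum count of 10 and minimum total of 15, TMM scaling, robust quasi-likelihood fit over the 3 photoperiods, and Benjamini-Hochberg adjustment over all genes tested. Liver against adipose and the tissue differences came from 1 fit of the 24 libraries over the 13286 genes in both tables. The standard error is the fold change divided by the square root of F. The steps were tested on simulated data. Alternatives were relative log expression (RLE) scaling, library size alone, no count filter, DESeq2 1.42.0, 1 transcript per gene, 1 library left out at a time, liver without 12v replicates 1 and 3 and 16v replicate 1, a ribosomal protein score, a block (the replicate number within a tissue, the labels' sample number in the joint fit) and, chosen after the data had been seen, the percent of each library held by 17 near-identical loci. Tables and figures were made with Python 3.11.15, pandas 2.3.3, numpy 2.4.6 and matplotlib 3.10.9. Genes were named where they passed a photoperiod or tissue difference test, were among the 12 of highest mean CPM in a tissue, had one of the 3 smallest p-values of a photoperiod comparison, or were among the 10 of largest fold each way between tissues; other genes were named after their values were seen. The genes and lists were chosen with earlier results of these data known.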

Additional observations from a re-analysis of the deposited data

Results flagged for a closer look

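Among 90 groups of 4 libraries, 7 held a library far from the other 3. The cut-off is meant to be passed by about 1 group in 20 by chance. The groups were of genes named by their level or p-value in these same data, so that rate cannot be set against the 7. In liver 12v replicate 4, CYP2AC1 had 855 CPM, against 0 to 54.1 CPM in the other 12v livers, and CYP2C18 had 498 CPM, against 2.94 to 11.2 CPM. CYP2C18 had 84.8 CPM in liver 16v replicate 3, against 6.84 to 18.0 CPM in the other 16v livers. MGST3 had 199 CPM in liver 16v replicate 4, against 88.2 to 102 CPM. GSTZ1 had 1779.5 CPM in liver 8L replicate 4, against 1132 to 1158 CPM in the other 8L livers, and SULT1B1 had 39.1 CPM in liver 8L replicate 1, against 20.6 to 23.7 CPM. GSTA4 had 49.2 CPM in adipose 8L replicate 3, against 198 to 219.7 CPM in the other 8L adipose samples.

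The photoperiod effect at 16v against 8L differed between liver and adipose for SULT1B1, by -4.11 ± 0.90 (edgeR adjusted p = 0.0470) on the log2 scale, and for UGT1A1, by -6.10 ± 1.23 (edgeR adjusted p = 0.0373), in the joint fit of both tissues. UGT1A1 had 0 counts in every adipose 8L library, so its value depends on the prior count. In adipose the summed hepatocyte markers were 5273 to 21779 CPM at 16v and 2084 to 8441 CPM at 8L, and their part in this difference was not tested. Most of this sum was APOA1, which averaged 10789 CPM at 16v and 4470 CPM at 8L. It also includes TF, which averaged 662 and 1134 CPM. The calls on SULT1B1 and UGT1A1 both ended with the labels' sample number as a block (edgeR adjusted p = 0.384 each).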

How the results depend on the processing

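Of the alternative values of single genes, 2001 kept their direction and side of the threshold, 74 passed the threshold where the reported value did not, 62 no longer passed it and 3 changed sign. Counts of calls are not part of these numbers. The counts of the P450 and conjugation genes called at 16v against 8L in liver, 1 as reported, were 3 with library size alone, 12 with DESeq2, 11 with 1 transcript per gene, 0 with the ribosomal score, 0 with the loci share, 3 without the 3 liver libraries that stood apart in that score, and 0 to 5 with 1 library left out: 0 without any one 8L or 16v library or 12v replicate 2, and 3, 2 and 5 without 12v replicates 1, 3 and 4. DESeq2 called 12% and 1 transcript per gene 18.4% of all genes there. Where a count under an alternative has no share of all genes beside it, here or above, it is not read as particular to these genes. At 12v against 8L in liver, 0 as reported, they were 1 with library size alone, 8 with DESeq2, 7 with 1 transcript per gene and 0 to 4 with 1 library left out. At 12v against 8L in adipose, 0 as reported, they were 1 with DESeq2 (GSTA4) and 2 with 1 transcript per gene (GSTA4 and PAPSS2). The tissue difference at 12v, 0 as reported, gave 2 with RLE scaling, 1 with library size alone, 3 with DESeq2, 2 with 1 transcript per gene, 1 with the ribosomal score and 0 to 1 with 1 library left out, the 1 without adipose 16v replicate 2. The tissue difference at 16v, 2 as reported, gave 0 without the count filter, 5 with DESeq2, 6 with 1 transcript per gene, 4 with the ribosomal score, 0 with the loci share and 0 to 3 with 1 library left out. Liver against adipose, 30 as reported, gave 27 to 35, and 29 to 31 with 1 library left out. The signs that changed were at 16v against 12v in liver: CYP2C18 had a log2 fold change of 0.36 with the loci share as a covariate. With 1 library left out, it had -3.54 to 1.94 and CYP2AC1 -2.83 to 0.89, positive in both without 12v replicate 4. The causes of these changes were not tested.

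Within a tissue, samples of the same replicate number deviated from their group means with correlations of -0.17 to 0.21. Low correlations cannot show whether these numbers pair the samples. With the replicate number as a block the counts called were 0 at 12v and 1 at 16v against 8L in liver. Between tissues, 11 of 12 sample numbers of the labels stand in both, with correlations of -0.04 to 0.08, and the labels do not say whether a number marks a bird. In the fit of both tissues with the sample number as a block, where the 2 numbers found in 1 tissue each have no partner, the counts called were 28 for liver against adipose (CYP46A1 and GSTA2 no longer passing) and 0 for the tissue differences at 12v and at 16v. For the 19 listed liver genes and 29 listed adipose genes with too few counts, no photoperiod difference could be tested.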
